A study of Mus musculus with 8 samples.

Results

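Oligodendrocytes carry genes for several signals that microglia read, and 8 such ligand genes were followed here: *Csf1*, *Il34*, *Cd47*, *Cd200*, *Cx3cl1*, *Gas6*, *Pros1* and *Il18*. They were listed for their known action on microglia or other macrophages, not by a measured value, but with earlier results of these data known. All 8 were among the 18833 genes of the matrix. The cells were 12581 mature oligodendrocytes, sequenced singly from the hippocampus and the cortex (here, the rest of the left hemisphere) of female mice. WT mice 1 and 4 were compared with FIREdelta/delta KO mice 3 and 6, which lack the *Fire* super-enhancer of *Csf1r*, the receptor gene on which microglia depend, and which have no microglia from development onwards but retain other macrophages of the central nervous system. The age was 1 month and 18 days for mice 1 and 3, and 16 days past 1 month for mice 4 and 6, so that each group held 2 mice and each mouse gave 1 library per tissue, 8 in all. The comparison asked how the ligand transcripts of oligodendrocytes differed between mice with and without the cells that receive these signals.

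Microglia are kept alive by signalling through CSF1R, which has a pair of ligands, the cytokines CSF1 and IL-34. In the brain, CSF1 is known mainly from glia and IL-34 mainly from neurons. Other signals restrain microglia at contact: CD47 engages SIRPα and blocks engulfment, CD200 engages CD200R1, and fractalkine, the product of *Cx3cl1*, engages CX3CR1. GAS6 and protein S, the product of *Pros1*, are vitamin K-dependent bridging proteins that tie phosphatidylserine on a membrane to the receptors TYRO3, AXL and MERTK, and protein S is also an anticoagulant cofactor in blood. Interleukin-18 is made as a precursor that caspase-1 cleaves, and it is held in check by the binding protein encoded by *Il18bp*.

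The libraries held 904 to 2784 cells and 12015360 to 27847948 UMIs (unique molecular identifiers, each standing for 1 captured transcript), with medians of 9377 to 13726 UMIs per cell and of 4.54% to 6.29% mitochondrial UMIs. *Csf1r*, the gene targeted in the KO mice, stood at 5.16 to 11.4 counts per 1000000 UMIs of the library (CPM) in WT libraries and at 0 to 0.14 CPM in KO libraries, so every library matched its label. The 6 oligodendrocyte markers summed to 60632 to 72473 CPM in every library. The 12 microglia markers summed to 67.4 to 162 CPM in WT libraries and to 16.6 to 22.0 in KO libraries, where up to 6 of them were at 0, including *Tmem119* in each KO library. Of all barcodes, 21 occurred in more than 1 library, in 42 cells. The deposited clusters divided the cells into Oligo1 (6 WT and 1552 KO cells), Oligo2 (1107 and 1275), Oligo3 (4363 and 3216) and Oligo4 (409 and 653).

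*Csf1* lies on chromosome 3 (GRCm38, 107741048 to 107760469, minus strand), *Gas6* (13465374 to 13494490, minus strand), *Cx3cl1* (94772009 to 94782427, plus strand) and *Il34* (110741829 to 110805924, minus strand) on chromosome 8, *Il18* on chromosome 9 (50554827 to 50581840, plus strand), and *Cd200* (45382135 to 45409053, minus strand), *Cd47* (49800533 to 49915010, plus strand) and *Pros1* (62854307 to 62929346, plus strand) on chromosome 16. *Il18* overlaps *Bco2* and *Tex12* on the opposite strand, which had 64 and 10 UMIs in all cells beside 9887 UMIs of *Il18*. *Gas6* overlaps *Tmem255b* on the opposite strand, with 38 UMIs beside 850 of *Gas6*. The promoters of *Csf1* and *Pros1* are shown because these were the ligand genes with the lowest p-values for genotype in the results that follow. They run from 250 bases before to 50 bases after the start of the gene in RefSeq on GRCm38.p6, in the direction of transcription, at chr3:107760420-107760719 on the minus strand and at chr16:62854057-62854356 on the plus strand. Capitals mark GC boxes (GGGCGG on either strand, overlapping matches included) and the STAT motif TTCNNNGAA.
Csf1: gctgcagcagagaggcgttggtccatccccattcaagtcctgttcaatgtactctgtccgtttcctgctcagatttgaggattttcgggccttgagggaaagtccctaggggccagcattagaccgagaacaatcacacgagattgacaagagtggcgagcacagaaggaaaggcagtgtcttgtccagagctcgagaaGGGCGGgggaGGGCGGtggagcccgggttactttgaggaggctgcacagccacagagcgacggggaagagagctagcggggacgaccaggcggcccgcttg
Pros1: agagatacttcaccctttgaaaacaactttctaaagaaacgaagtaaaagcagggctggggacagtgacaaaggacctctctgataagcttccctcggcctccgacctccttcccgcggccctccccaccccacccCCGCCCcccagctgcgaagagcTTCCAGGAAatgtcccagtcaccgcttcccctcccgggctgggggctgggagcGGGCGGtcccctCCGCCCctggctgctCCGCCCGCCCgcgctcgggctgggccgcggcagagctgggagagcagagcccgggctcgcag
The *Csf1* window held 2 GC boxes and no STAT motif, and the *Pros1* window held 5 GC boxes and 1 STAT motif. Of all 32851 promoters of this length, 35.7% held a GC box and 8.30% the STAT motif. The CCAAT box (CCAAT), the TATA box (TATAAA) and the AP-1 motif TGANTCA, sought on both strands, had no match in either window. Of the 8 ligand genes, 7 had an entry among the promoters, the exception being *Il34*.

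Transcripts of *Cd47* were found in nearly every oligodendrocyte, with a UMI in 96.3% of all 12581 cells, and those of *Csf1* and *Il18* in 52.2% and 51.6%. *Cd200* had a UMI in 17.2%, *Gas6* in 6.06% and *Pros1* in 4.51% of cells. *Il34* and *Cx3cl1* had 48 and 74 UMIs in total and were found in 0.318% and 0.540% of cells. The matrix holds oligodendrocytes only, so the share of a cell type that lacks these genes was not measured. The neuronal marker *Snap25*, which oligodendrocytes should not transcribe, had a UMI in 3.72% to 7.63% of the cells of a library, and shares of *Gas6*, *Pros1*, *Il34* and *Cx3cl1* at or below that range could not be told from free RNA in this way. The erythrocyte marker *Hbb-bs* had a UMI in 21.8% to 45.9% of the cells of a KO library and in 11.1% to 22.7% in WT. Against that marker the share of *Cd200* could not be told from free RNA either. UMIs were counted at the 3′ ends of transcripts without scaling to transcript length, so levels are compared between samples and not between genes.

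**Figure D1:**
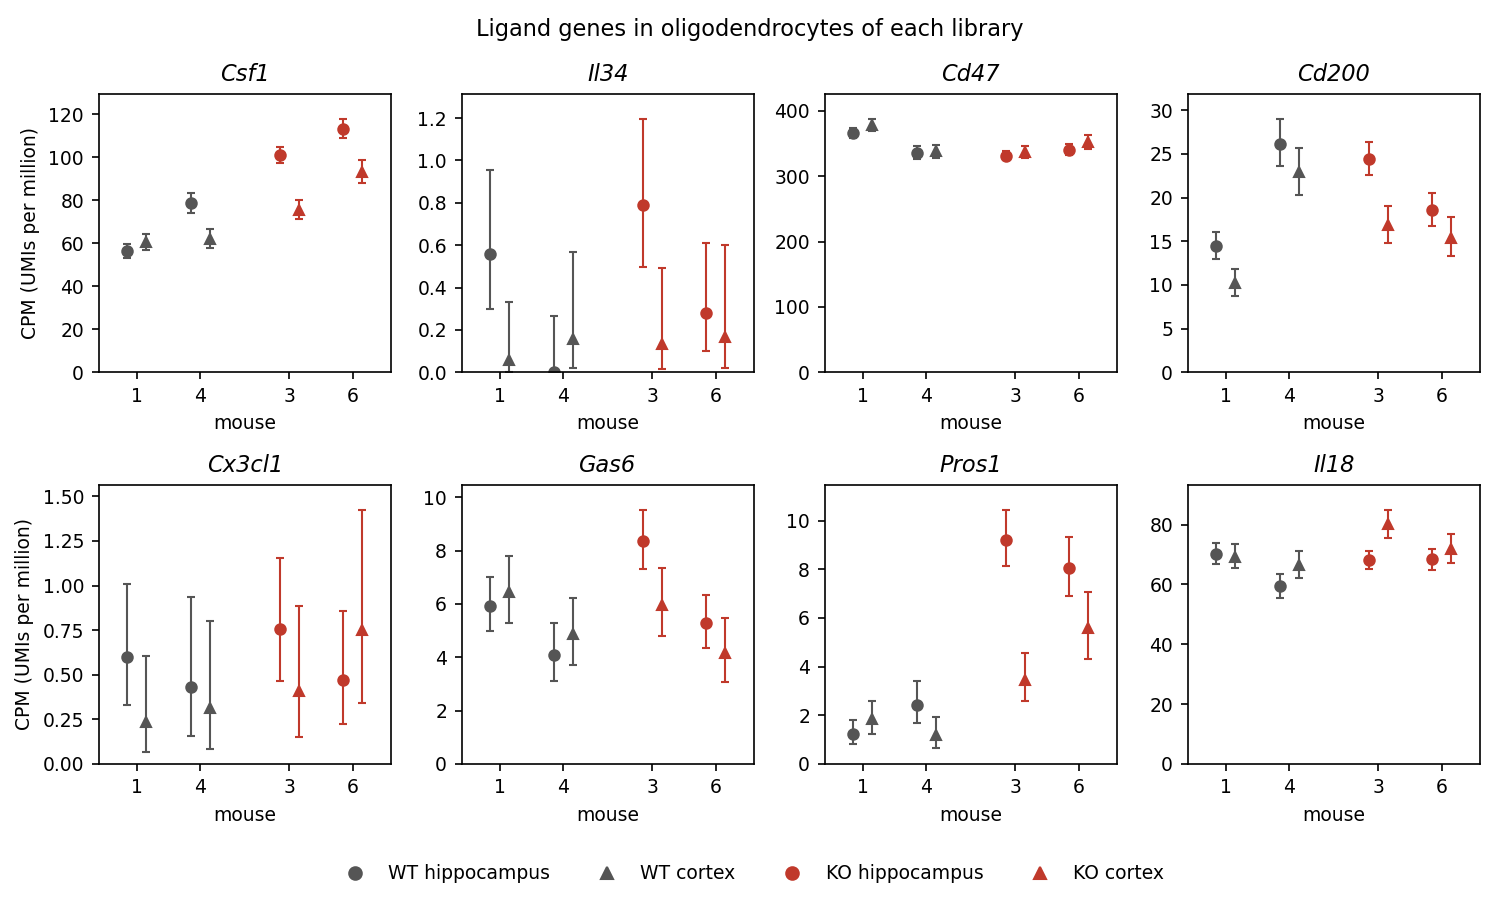
CPM (y axis) of each ligand gene in the oligodendrocytes of each library, by mouse (x axis), with WT in grey, KO in red, circles for hippocampus and triangles for cortex; bars are exact Poisson 95% intervals, which cover counting error only. The 4 KO libraries lay above all 4 WT libraries for *Pros1* (3.46 to 9.23 against 1.17 to 2.44), while the groups overlapped for the other genes.

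Of the ligands of CSF1R, *Csf1* was the abundant one, and its level was higher in both KO mice than in both WT mice. It stood at 56.3 and 78.7 CPM in the hippocampus and at 60.6 and 62.2 in the cortex of WT mice 1 and 4, and at 101 and 113 in the hippocampus and 75.5 and 93.3 in the cortex of KO mice 3 and 6. The KO cortex of mouse 3 alone lay within the WT range, below the WT hippocampus of mouse 4. With both tissues of a mouse weighted equally, the level was 95.8 ± 10.6 CPM in KO mice and 64.4 ± 8.48 in WT mice (SD, n = 2 each), a ratio of 1.49. The KO library was above the WT library in each of the 4 batches, with ratios from 1.25 to 1.79. A UMI of *Csf1* was found in 53.9% to 62.5% of cells in KO libraries and in 39.5% to 58.0% in WT libraries. After every cell was thinned to 5000 UMIs, the KO mice had it in 32.9% and 36.9% of cells and the WT mice in 24.5% and 27.5%.

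The difference in *Csf1* did not pass the test across genes. On the scale of mean log2 values, KO exceeded WT by 0.17 (standard error 0.046), with an unadjusted p of 0.00907 and an adjusted p of 0.945 in limma with Benjamini-Hochberg adjustment over 11672 genes, of which 0.0514% passed. None of the 6 ligand genes that entered the test passed, although *Csf1* and *Pros1* had an unadjusted p under 0.05, as did 2.66% of all genes. The median difference of the 6 was 0.020 beside 0.00092 over all genes tested. With a block for the pair of mice that shared batches, the adjusted p of *Csf1* was 0.0256, in a fit that passed 51 genes in place of 6. Without Oligo1 cells its difference was 0.097.

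*Il34*, the other ligand gene of CSF1R, was close to absent from these cells. It had 24 and 8 UMIs in KO mice 3 and 6 and 14 and 2 UMIs in WT mice 1 and 4. Per library it stood at 0.56 and 0 CPM in the hippocampus and at 0.059 and 0.16 in the cortex of WT mice 1 and 4, and at 0.79 and 0.28 in the hippocampus and 0.14 and 0.17 in the cortex of KO mice 3 and 6. The groups overlapped, and the 0 in WT hippocampus of mouse 4 allowed up to 3 UMIs, or 0.215 CPM, and 3 of its 1047 cells, or 0.287%. Found in fewer than 1% of cells, *Il34* was not tested.

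Of the ligands of TYRO3, AXL and MERTK, *Pros1* stood apart by genotype. It was found at 1.25 and 2.44 CPM in the hippocampus and at 1.84 and 1.17 in the cortex of WT mice 1 and 4, and at 9.23 and 8.04 in the hippocampus and 3.46 and 5.58 in the cortex of KO mice 3 and 6. All 4 KO libraries were above all 4 WT libraries, and the lowest KO library had 51 UMIs of *Pros1* (interval 2.58 to 4.55 CPM) beside 34 UMIs in the highest WT library (1.69 to 3.41). Such a separation of mean log2 values, KO above WT, was seen for 2.95% of all genes tested. The level was 6.58 ± 0.329 CPM in KO mice and 1.67 ± 0.188 in WT mice (SD, n = 2 each), a ratio of 3.93, and the ratio within a batch was 7.41 and 3.30 in the hippocampus and 1.89 and 4.75 in the cortex. A UMI of *Pros1* was found in 3.82% to 7.81% of KO cells and in 1.18% to 3.06% of WT cells, and after thinning in 2.62% and 3.21% of the cells of KO mice and in 0.779% and 1.12% of those of WT mice.

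On the scale of mean log2 values, which shrinks differences of sparse genes, KO exceeded WT in *Pros1* by 0.036 (standard error 0.0041), with an unadjusted p of 0.000107 and an adjusted p of 0.0814 in limma. The adjusted p was 0.0214 in edgeR on summed UMIs, where the difference was 2.10 on the log2 scale and 0.411% of all genes passed, 0.0358 on log2 CPM plus 1, and 0.0215 with the block for mice that shared batches. Without Oligo1 cells the difference was 0.015. *Pros1* is also transcribed by endothelial cells and other cells of vessels. The 5 endothelial markers summed to 22.9 to 25.9 CPM in KO libraries and to 4.73 to 25.5 in WT libraries, and the 4 markers of oligodendrocyte progenitors to 11.2 to 33.4 and to 8.35 to 15.4. In the hippocampus both lists were higher in both KO libraries: the endothelial markers stood at 25.3 and 25.9 CPM in KO mice 3 and 6 against 4.73 and 10.5 in WT mice 1 and 4, and the progenitor markers at 33.4 and 24.2 against 15.4 and 12.2. In the cortex the KO and WT libraries overlapped for the endothelial markers (22.9 and 24.1 against 21.1 and 25.5) and for the progenitor markers (13.4 and 11.2 against 8.35 and 11.7). None of these markers was at 0 in any library. In cells without a UMI of the endothelial markers, *Pros1* stood at 3.37 to 9.01 CPM in KO libraries and at 1.02 to 2.31 in WT libraries, and its difference was again 0.036 (adjusted p of 0.0674 in limma). In cells without a UMI of the progenitor markers, it stood at 3.18 to 8.48 and at 1.18 to 2.69, with a difference of 0.033 (adjusted p of 0.163 in limma).

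*Gas6* did not separate the genotypes. It stood at 5.93 and 4.09 CPM in the hippocampus and at 6.45 and 4.86 in the cortex of WT mice 1 and 4, and at 8.37 and 5.28 in the hippocampus and 5.97 and 4.16 in the cortex of KO mice 3 and 6. The groups overlapped in both tissues, but the KO library was above the WT library in both hippocampal batches (ratios of 1.41 and 1.29) and below it in both cortical batches (0.925 and 0.857). The difference over both tissues was 0.0035 (standard error 0.0083, adjusted p of 1.00 in limma). The term for a genotype difference that differed between tissues was 0.017 for *Gas6* (standard error 0.0065), with an unadjusted p of 0.0229 and an adjusted p of 0.749 in limma, and it did not pass.

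Among the ligands that restrain microglia, *Cd47* overlapped between the genotypes. It stood at 366 and 336 CPM in the hippocampus and at 378 and 338 in the cortex of WT mice 1 and 4, and at 331 and 341 in the hippocampus and 337 and 352 in the cortex of KO mice 3 and 6. KO libraries ran from 331 to 352 and WT libraries from 336 to 378, with means of 340 ± 8.66 in KO and 355 ± 25.0 in WT mice (SD, n = 2 each). The difference in mean log2 value was -0.053 (standard error 0.11, adjusted p of 1.00 in limma), smaller than its standard error.

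*Cd200* differed more between mice of 1 genotype than between genotypes. It stood at 14.4 and 26.2 CPM in the hippocampus and at 10.2 and 22.9 in the cortex of WT mice 1 and 4, and at 24.4 and 18.6 in the hippocampus and 16.8 and 15.4 in the cortex of KO mice 3 and 6. WT mouse 4 was thus the highest and WT mouse 1 the lowest of the 4 mice in each tissue and over both. The KO library was above the WT library in both batches of mice 1 and 3 (ratios of 1.69 and 1.65) and below it in both batches of mice 4 and 6 (0.709 and 0.673). Over all mice the difference in mean log2 value was -0.0051 (standard error 0.033, adjusted p of 1.00 in limma), and it was above 0 on log2 CPM plus 1 (0.094) and without WT mouse 4 (0.045) or KO mouse 6 (0.0072).

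*Cx3cl1* was as sparse as *Il34* and was not tested. It had 27 and 19 UMIs in KO mice 3 and 6 and 18 and 10 UMIs in WT mice 1 and 4. Its level was 0.24 to 0.60 CPM in WT libraries and 0.41 to 0.75 in KO libraries, with overlapping groups. By mouse the groups did not overlap, at 0.581 and 0.608 in KO and 0.419 and 0.372 in WT mice. The counting interval of the highest KO library, the hippocampus of mouse 3 (0.47 to 1.15 CPM), overlapped that of the lowest WT library, the cortex of mouse 1 (0.065 to 0.61).

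*Il18* differed little between libraries. It stood at 70.3 and 59.3 CPM in the hippocampus and at 69.3 and 66.4 in the cortex of WT mice 1 and 4, and at 68.1 and 68.4 in the hippocampus and 80.1 and 72.0 in the cortex of KO mice 3 and 6. The highest levels were in the KO cortex, and the hippocampal libraries of the groups overlapped. The mean was 72.1 ± 2.74 in KO and 66.4 ± 4.92 in WT mice (SD, n = 2 each), and the ratio within a batch was 0.968 and 1.15 in the hippocampus and 1.15 and 1.08 in the cortex. The difference in mean log2 value was 0.042 (standard error 0.035, adjusted p of 1.00 in limma). By mouse, the mean log2 values of KO lay above those of WT without overlap for *Csf1*, *Pros1* and *Il18*, 3 of the 6 tested ligand genes, as they did for 13.3% of all genes tested.

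**Figure D2:**
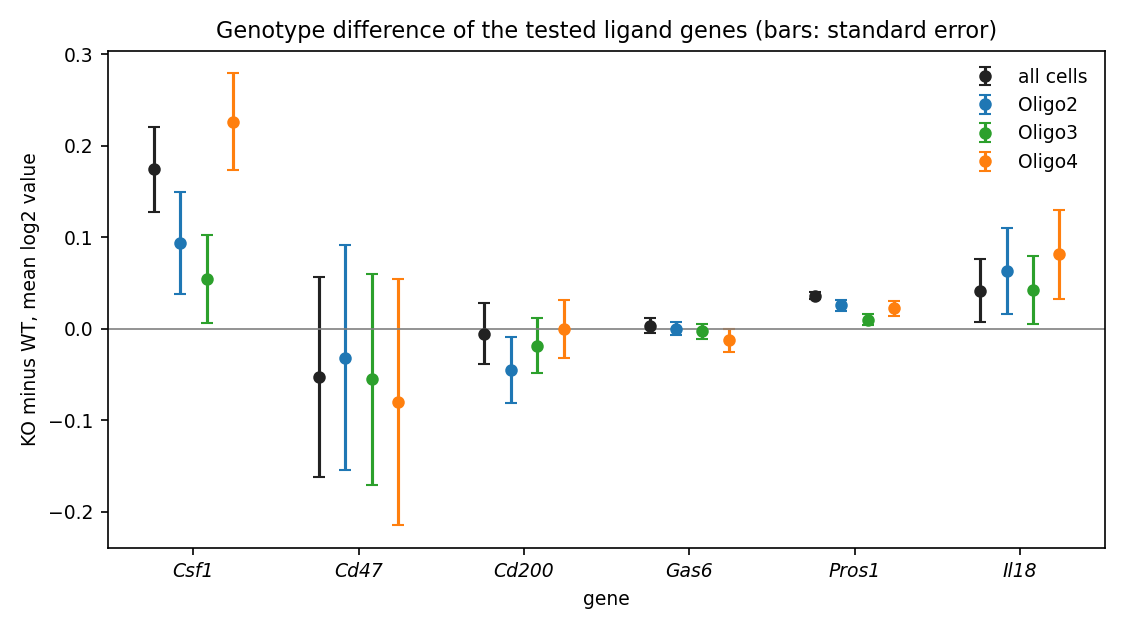
KO minus WT difference in mean log2 value (y axis) of the 6 tested ligand genes (x axis) in all oligodendrocytes and within Oligo2, Oligo3 and Oligo4, from limma on 2 mice per group; bars are standard errors. The difference of *Csf1* was 0.17 in all cells and 0.23 in Oligo4, and those of *Pros1* were small on this scale with short bars (0.036 in all cells).

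Within fixed clusters the same genes were asked about among like cells, which is conditional on clusters that were drawn from the expression of these cells. None of the 6 tested ligand genes passed in Oligo2, Oligo3 or Oligo4, where 0.0688%, 0.0173% and 0.0939% of all genes passed. An unadjusted p under 0.05 was reached by *Pros1* in Oligo2, by none in Oligo3 and by *Csf1* and *Pros1* in Oligo4, and by 2.09%, 1.15% and 3.46% of all genes. In Oligo4, *Csf1* stood at 51.3, 50.2, 39.8 and 52.7 CPM in WT libraries (hippocampus of mice 1 and 4, then cortex) and at 82.4, 98.8, 75.2 and 92.9 in KO libraries (hippocampus of mice 3 and 6, then cortex). By mouse, the mean log2 values of KO lay above those of WT without overlap, as they did for 15% of all genes tested in Oligo4. The difference in mean log2 value was 0.23 (standard error 0.053, adjusted p of 0.319 in limma). The cortex of WT mouse 1 and of KO mouse 3 gave only 38 and 47 of these Oligo4 cells. In Oligo2 the difference in *Csf1* was 0.094 (standard error 0.056), with mice at 87.5 and 100 CPM in WT and at 105 and 120 in KO. In Oligo3, which held most cells, it was 0.055 (standard error 0.048) and the mice overlapped.

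The mouse means of *Pros1* were higher in KO in each of these clusters, with few UMIs behind each value. In Oligo2 it stood at 1.30 and 2.19 CPM in WT mice 1 and 4 and at 4.76 and 5.31 in KO mice 3 and 6. The difference in mean log2 value was 0.026 (standard error 0.0060, adjusted p of 0.490 in limma). In Oligo3 it was 1.63 and 1.77 in WT and 1.87 and 4.09 in KO mice, and KO exceeded WT by 0.010 (standard error 0.0059, adjusted p of 1.00 in limma). In Oligo4 it was 0.546 and 1.39 in WT and 4.01 and 3.24 in KO mice, and KO exceeded WT by 0.023 (standard error 0.0083, adjusted p of 1.00 in limma), with 0 UMIs in both WT cortical libraries. Within batches of Oligo3 the order was not uniform: in the cortex of mice 1 and 3 it stood at 1.83 CPM in WT and 0.749 in KO, a ratio of 0.410. The Oligo3 difference was 0.0011 without KO mouse 6 and 0.019 without KO mouse 3. Mean log2 values of both KO mice above both WT mice were seen for 12.7%, 10.7% and 15% of all genes in the 3 clusters. *Cd47*, *Cd200*, *Gas6* and *Il18* had adjusted p-values of 1.00 in limma in each cluster.

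**Figure D3:**
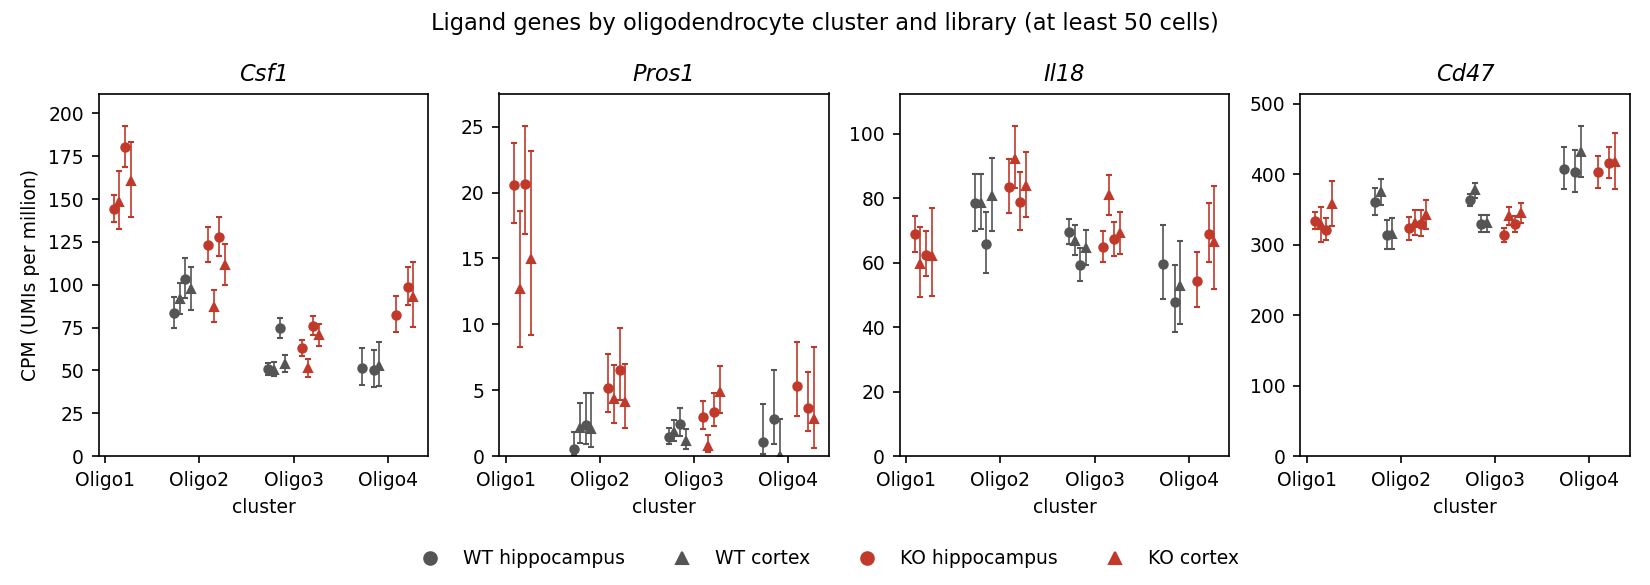
CPM (y axis) of *Csf1*, *Pros1*, *Il18* and *Cd47* by deposited cluster (x axis) in each library with at least 50 cells of the cluster, with WT in grey, KO in red, circles for hippocampus and triangles for cortex; bars are exact Poisson 95% intervals. Oligo1, which has KO points only, held the highest levels of *Csf1* (144 to 180) and *Pros1* (12.7 to 20.6), and Oligo4 the highest of *Cd47*.

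The clusters differed in these ligands as a description, since their making used the same cells. *Csf1* was ordered alike in all 4 KO libraries: Oligo1 (144 to 180 CPM) above Oligo2 (87.2 to 128) above Oligo3 (51.2 to 75.9), with counting intervals apart in each library. In Oligo1, 69.8% to 80.6% of cells had a UMI of *Csf1*, and 21.1% to 33.7% had 3 or more. WT libraries shared the step from Oligo2 (83.2 to 103 CPM) down to Oligo3 (50.5 to 74.7) in 4 of 4 libraries. Oligo4 was above Oligo3 in each of the 3 KO libraries with at least 50 cells of it, with intervals apart in 2. It was above in 1 of 3 such WT libraries, without intervals apart. In the hippocampus of WT mouse 4, Oligo4 was below Oligo3 with intervals apart (50.2 against 74.7 CPM).

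*Pros1* was also highest in Oligo1 in each KO library. It stood at 20.6 and 20.6 CPM in the hippocampus and at 12.7 and 15.0 in the cortex of KO mice 3 and 6 in Oligo1, where 12.9% to 19.6% of cells had a UMI of it. In Oligo3 of the same mice it stood at 0.749 to 4.82, so that Oligo1 was 8.87 times Oligo3 in mouse 3 and 4.36 times in mouse 6. The intervals of Oligo1 were apart from those of Oligo2 and Oligo3 in 4 of 4 KO libraries, while Oligo2 was above Oligo3 in 3 of 4, with intervals apart in 1, at ratios of 2.54 in mouse 3 and 1.30 in mouse 6. The share of Oligo1 cells with a UMI of *Pros1* was above the share with a UMI of *Snap25* in the whole of any library (at most 7.63%). It was below the share with a UMI of the erythrocyte marker *Hbb-bs* in KO libraries (21.8% to 45.9%). These comparisons set a cluster against whole libraries, and the free RNA of *Pros1* itself was not measured.

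The other ligands had other orders. *Cd200* was higher in Oligo1 (24.7 to 36.3 CPM) than in Oligo3 (13.4 to 19.1) in 4 of 4 KO libraries, with intervals apart in each, and WT Oligo3 ranged from 10.1 to 25.9. *Gas6* was above Oligo3 in Oligo1 in 3 of 4 KO libraries, with intervals apart only in the hippocampus of mouse 3 (13.5 against 6.00). *Il18* was highest in Oligo2 in each KO library (78.7 to 92.3) and lower in Oligo1 (59.6 to 68.8), with intervals apart in 3 of 4. In WT libraries, too, Oligo2 (65.8 to 80.6) was above Oligo3 (59.3 to 69.6) in 4 of 4, though with intervals apart in 0. *Cd47* was highest in Oligo4 in both genotypes, at 403 to 417 CPM in KO and 404 to 431 in WT libraries with at least 50 such cells, against 314 to 345 in Oligo3 of KO and 330 to 377 in Oligo3 of WT libraries. *Cx3cl1* had too few UMIs to order the clusters. For *Il34*, intervals were apart only in the hippocampus of KO mouse 3, where Oligo1 held 16 of 22 UMIs. There Oligo1 (1.80 CPM) was above Oligo2 (0) and Oligo3 (0.353). The 6 WT cells assigned to Oligo1, all from the hippocampus of mouse 4, held 20 UMIs of *Csf1* and none of *Pros1*.

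**Figure D4:**
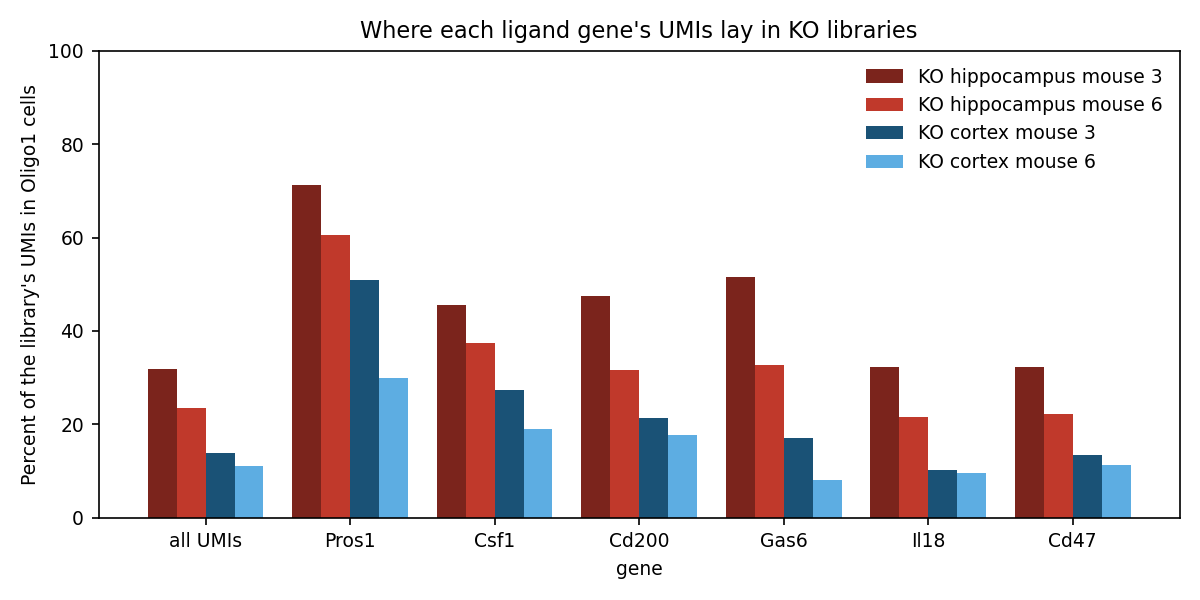
Percent of each KO library's UMIs (y axis) that lay in Oligo1 cells, for all UMIs and for 6 ligand genes (x axis), 1 bar per KO library. The bars of *Pros1* (29.9% to 71.2%) and *Csf1* (19.1% to 45.7%) exceed those of all UMIs in the same libraries (11.1% to 32.0%), while those of *Il18* and *Cd47* are close to them.

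Oligo1 took different shares of each ligand's transcripts. It held 32.0% and 23.6% of all UMIs in the hippocampal libraries and 13.9% and 11.1% in the cortical libraries of KO mice 3 and 6. Of *Pros1* UMIs it held 71.2%, 60.5%, 51.0% and 29.9% in the same order, and of *Csf1* UMIs 45.7%, 37.5%, 27.3% and 19.1%. The corresponding shares of *Cd200* were 47.5%, 31.7%, 21.4% and 17.8%. Those of *Cd47* (32.2%, 22.2%, 13.5% and 11.3%) and of *Il18* (32.3%, 21.5%, 10.3% and 9.60%) were close to the share of all UMIs.

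Between tissues, no ligand gene passed, and no gene at all passed in limma with genotype as a covariate (0%), where 652 of 11672 genes (5.59%) had an unadjusted p under 0.05, nor did any in edgeR. In KO mice *Csf1*, *Pros1*, *Cd200* and *Gas6* were higher in the hippocampus than in the cortex in both mice, and *Il18* and *Cd47* were lower in both. *Cd200* was higher in the hippocampus in both WT mice too. The CPM of *Cd47* was also lower there in both WT mice, with hippocampus minus cortex at -12.0 in mouse 1 and -1.93 in mouse 4. In mean log2 value this difference was -0.073 in mouse 1 and 0.016 in mouse 4. For *Pros1* the hippocampus exceeded the cortex by 5.77 and 2.47 CPM in KO mice 3 and 6, and the differences in WT mice 1 and 4 were -0.590 and 1.26. When a block for the mouse was added, since both tissues came from each animal, 55 genes passed but none of the 6 ligand genes did (lowest adjusted p of 0.119, for *Cd200*). In KO mice alone with this block, *Pros1* passed with a difference in mean log2 value of 0.028 (standard error 0.0061, adjusted p of 0.0489 in limma), beside 357 genes. The difference of the genotype difference between tissues did not pass for any ligand gene or any other gene in limma (0%, with 695 genes or 5.95% at an unadjusted p under 0.05, and 1 gene passing in edgeR), and for *Pros1* it was 0.025 (standard error 0.0082, adjusted p of 0.681 in limma). Oligo1, where *Pros1* was highest, took larger shares of UMIs in the hippocampus than in the cortex, and its part in this was not tested.

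The receptors of these ligands had few UMIs in oligodendrocytes, *Tyro3* and, at a lower level, *Ptprz1* excepted. Of 11 receptor genes, 10 were in the matrix (not *Il18rap*), and 7 entered the test over all oligodendrocytes, where 0 passed in limma (4 at an unadjusted p under 0.05, beside 2.66% of all genes) and the median difference was -0.0079 beside 0.00092 over all genes tested. In edgeR, *Csf1r* and *Cx3cr1* passed, as did 0.411% of all genes. *Tyro3*, a receptor for GAS6 and protein S that oligodendrocytes carry themselves, stood at 178 to 201 CPM in KO and at 156 to 180 in WT libraries, a difference in mean log2 value of 0.096 (standard error 0.073, adjusted p of 1.00 in limma). *Ptprz1*, also among the listed receptors, stood at 9.65 to 26.2 CPM in KO and at 12.6 to 20.2 in WT libraries. A UMI of it was found in 10.5% to 18.7% of the cells of a KO library and in 12.7% to 14.7% of those of a WT library. *Axl* stood at 0.271 to 0.842 CPM in KO and at 0.430 to 0.862 in WT libraries, and *Mertk* at 0.271 to 1.58 and at 1.37 to 2.74. *Sirpa* stood at 2.71 to 3.50 CPM in KO libraries and at 3.55 to 6.11 in WT libraries. *Csf1r* and *Cx3cr1*, receptors that mark microglia, stood at up to 11.4 and 14.0 CPM in WT libraries. Both are in the list of 12 microglia markers. They were lower in KO in Oligo2, by 0.051 (adjusted p of 0.0468) and 0.059 (adjusted p of 0.0129) on the mean log2 scale in limma, which passed, as did 0.0344% of all genes in this direction. Of the whole marker list, the differences of 11 of 11 tested genes were below 0 in Oligo2, of which 4 passed, and 11 of 11 over all cells, of which 1 passed. Whether WT values of any ligand gene hold RNA of microglia was not tested.

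Genes that process the ligands showed no genotype difference that passed. Of 9 such genes 8 were tested over all oligodendrocytes, with a median difference of -0.0018 and 0 at an unadjusted p under 0.05 in limma or edgeR. The sheddases *Adam10* and *Adam17*, which release membrane-bound ligands such as fractalkine, stood at 70.2 to 88.0 and 48.3 to 55.0 CPM across the 8 libraries. *Vkorc1*, which recycles the vitamin K that protein S and GAS6 need, stood at 71.7 to 116, and *Ggcx*, the carboxylase that uses it, at 2.25 to 3.84. *Casp1*, which encodes the protease that activates interleukin-18, stood at 0 to 0.157 CPM in every library, and *Il18bp* at 0.687 to 2.01.

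Of 18 other signals to microglia or macrophages, 17 were in the matrix and 10 were tested over all oligodendrocytes, and 0 passed in limma (0 at an unadjusted p under 0.05, median difference 0.0066) or in edgeR (2 at an unadjusted p under 0.05, *Cxcl12* and *Mif*, beside 3.3% of all genes). *Il33*, an alarmin cytokine gene, stood at 595 and 235 CPM in the hippocampus and at 539 and 199 in the cortex of WT mice 1 and 4, and at 716 and 401 in the hippocampus and 487 and 333 in the cortex of KO mice 3 and 6. Mice 1 and 3, which shared batches, were above mice 4 and 6 in both tissues whatever their genotype, and the difference by genotype was 0.12 (standard error 0.34, adjusted p of 1.00 in limma). *Mif*, a macrophage migration inhibitory factor, stood at 309 to 437 CPM in WT and at 248 to 330 in KO libraries, a difference in mean log2 value of -0.30 (standard error 0.12, adjusted p of 1.00 in limma). *App*, whose product has been described as a ligand of microglial receptors, stood at 2359 to 2862. *Il6*, *Tnf*, *Ccl2* and *Cxcl10*, cytokine and chemokine genes of inflammation, were at no more than 0.166 CPM in any library. *Il1b*, another such gene of the list, ran from 0 to 1.76 CPM in KO and from 0 to 0.473 in WT libraries, in at most 0.442% of cells.

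Genes with the most similar levels were sought over the 26 groups of at least 50 cells formed by library and cluster, which share libraries and depth, so these are descriptions without a test. For *Csf1* they were *Piezo2* (Pearson's r of 0.93), *Tmsb4x* (0.92) and *Aldh1l2* (0.91) of 11671 genes, and the r of *Csf1* with *Pros1* was 0.82. For *Cd47* they were *Slc22a17* (0.91), *Lims2* (0.89) and *Lpar1* (0.88), and the r of *Cd47* with *Csf1* was -0.47. For *Il18* they were *Ap1s1* (0.85), *Gt(ROSA)26Sor* (0.84) and *Snhg3* (0.84). For *Gas6* they were *Rasa3* (0.84), *Lgals2* (0.80) and *Btc* (0.79), and for *Cd200* *Shisa5* (0.82), *Fam168a* (0.71) and *Galnt6* (0.71). *Pros1*, *Il34* and *Cx3cl1*, found in under 5% of cells, were not compared in this way.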

How the data were processed

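Single cells were dissociated from hippocampus and cortex with actinomycin D, sorted on scatter, which excluded doublets, and viability, and made into 10x Chromium 3′ v3.1 libraries. According to the study's methods and the submitters' processing notes, the authors aligned and counted reads with Cell Ranger 5.0.0 on mm10, subset oligodendrocytes, required 5000 UMIs and at most 10% mitochondrial reads per cell, normalized with scran, and clustered after batch correction with fastMNN. Values in the deposited matrix are on a log2 scale (1 added to the ratio of UMI count to size factor), without batch correction, for 18833 genes and 12581 cells, fewer than the study's methods give. The deposited cell table gives total UMI counts, the size factor (a ratio to the average cell), percent mitochondrial UMIs, cluster and batch. Each of the 4 batches held 1 WT and 1 KO library of 1 tissue, and the study describes batch 6 as of poorer quality.

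UMI counts were recovered by reversing the formula, and 100% of 42420937 values above 0 were whole within 0.001. Matrix totals equalled the deposited totals in 11264 cells and differed by at most 147 UMIs. Levels are UMIs per 1000000 UMIs of the matrix (CPM), with exact Poisson 95% intervals, which cover counting error only. Shares of cells were also computed after thinning each cell to 5000 UMIs at random. For tests, log2 values were averaged over cells by library and over both tissues by mouse, and compared by limma 3.58.1 (R 4.3.3, eBayes with trend, two-sided, Benjamini-Hochberg over all genes, threshold 0.05) on genes found in 1% of cells or more. The alternative count test was edgeR 4.0.16 (quasi-likelihood) on summed UMIs. The mouse is the replicate, and with 2 per group an exact permutation test could not go below 0.333. Both tissues of a mouse deviated from the group means together (Pearson's r of 0.83 in WT and 0.85 in KO mice over 11672 genes). The mice of a group also differed in batches and age, so the part of the animal cannot be told apart from these. The cells hold no other cell type by the study's selection, and no doublet caller was run.

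The 8 ligand genes, the lists of receptors, processing genes and other signals, the markers and the rule for similar genes (the 3 highest correlations for each ligand gene in at least 5% of cells) were chosen with earlier results of these data known. Alternatives changed the scale, gene filter, test, tissue, batch, centring, cells or mice, and 2 more, which left out cells with UMIs of endothelial or progenitor markers, were chosen after seeing the data. Positions are from GENCODE vM21 (GRCm38), which held 18526 of the 18833 gene symbols, and promoters from RefSeq (GRCm38.p6).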

Additional observations from a re-analysis of the deposited data

How the results depend on the processing

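Over all oligodendrocytes, 6 genes passed for genotype. The count was 21 on log2 of the mean normalized value plus 0.1, 35 on log2 CPM plus 1, 48 with edgeR, 0 without a gene filter, 51 with the block for mice that shared batches, 12 after centring every mouse at its median gene, 3 without Oligo1 cells, 2 in the cortex alone, 0 with the mouse as a random replicate block over 8 libraries and 26 without the cortex libraries of batch 6. Within Oligo2 it was 8, and 13 on either other scale, 14 with edgeR, 2 with a filter at 5% of cells and 0 without a filter. Within Oligo3 it was 2, and 9, 12 and 12 on the other scales and with edgeR, 1 with the filter at 5% and 0 without one. Within Oligo4 it was 11, and 27 on either other scale, 37 with edgeR and 0 without a filter. Between tissues it was 0, and 55 with the mouse as replicate block, 1 in WT mice and 357 in KO mice. For the genotype by tissue term it was 0, and 2 on log2 CPM plus 1, 2 with the filter at 5% and 1 with edgeR. Leaving out 1 mouse at a time, which leaves a lone mouse assumed to vary like the others, gave 118 to 153 genes over all oligodendrocytes, 42 to 56 in Oligo2, 49 to 72 in Oligo3, 39 to 48 in Oligo4, 0 between tissues and 0 to 76 for the genotype by tissue term. The cause of these changes was not tested.

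Among the ligand genes, *Pros1* passed over all oligodendrocytes on both other scales, with edgeR, with the batch-pair block and without each mouse in turn (differences of 0.033 to 0.039), and not without a gene filter, after centring, in the 8-library fit, in either tissue alone, without Oligo1, with the other clusters weighted equally, without batch 6 cortex or in the cells free of endothelial or progenitor markers. *Csf1* passed over all oligodendrocytes with the batch-pair block only, and in Oligo4 in no fit that kept both mice of each group. *Cd200* over all oligodendrocytes was above 0 on both other scales (0.010 and 0.094) and with edgeR (0.070), and ran from -0.056 to 0.045 as mice were left out. *Gas6* there was -0.0051 in the cortex, -0.0025 without Oligo1 and -0.0051 with the other clusters weighted equally, and ran from -0.0063 to 0.013. As mice were left out, Oligo2 gave -0.12 to 0.053 for *Cd47*, -0.11 to 0.019 for *Cd200* and -0.0013 to 0.0010 for *Gas6*, which was 0.00072 on log2 of the mean plus 0.1. Oligo3 gave -0.11 to 0.0021 for *Cd47*, -0.067 to 0.030 for *Cd200* and -0.011 to 0.0055 for *Gas6*. Oligo4 gave -0.036 to 0.036 for *Cd200*, which was 0.037 and 0.085 on the other scales, and -0.032 to 0.0075 for *Gas6*, which was 0.070 with edgeR. Between tissues *Gas6* ran from -0.0022 to 0.0052 and was -0.0071 in WT mice with the replicate block. The genotype by tissue term ran from -0.012 to 0.0065 for *Cd200*, which was 0.026 and 0.057 on the other scales and 0.045 with edgeR, and from -0.023 to 0.13 for *Csf1*. The share of cells with a UMI was higher in both KO than in both WT mice for *Csf1*, *Il34* and *Pros1*, as deposited and after thinning. For *Cx3cl1* and *Il18* this order held as deposited but not after thinning. How many of all genes had this order in the share of cells was not computed, so it is not read as a result about these genes. On another measure, mean log2 values, 13.3% of all genes tested had it, and *Il34* and *Cx3cl1* were not among the genes tested. *Il34* and *Cx3cl1* had only 2 to 27 UMIs per mouse. *Il34* and *Cx3cl1* had too few UMIs at this depth to be compared within clusters.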
